A study of Mus musculus with 15 samples.

Results

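The genes described are Pgc, Pga5, Chia1, Lipf and Bhlha15, which are used as identity genes of chief cells, the enzyme-secreting cells at the base of the acid-producing glands of the stomach. They were chosen by symbol and make up 5 of the 36144 entries of the deposited gene table. RNA from 15 mouse stomach samples had been sequenced in bulk as 5 groups of 3. The groups were normal tissue and tumors from 4 places, namely the antrum, the corpus, and the greater and the lesser curvature of the cardia. Every sample, the normals included, came from C57BL/6 mice aged 7 to 8 weeks that carried Pou2f3-CreERT, Rb1fl/fl, Trp53fl/fl and LSL-MycT58A. All had received tamoxifen at 50 mg/kg into the abdomen on a single day and were collected at 5 weeks. Pou2f3 drives the Cre and is known for tuft cells, a sensory cell type of the gut lining, so the normal tissue is from mice with the same alleles and the same induction. The labels do not give the stomach region of the normal tissue, nor whether the 3 samples of a group came from separate animals. The p-values therefore measure the spread between these samples, which may be partly technical.

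Chief cells store digestive enzymes in granules at the base of the corpus gland and release them when nerves or hormones signal through acetylcholine and peptide receptors. Pgc and Pga5 encode pepsinogens, inactive proteases that are cut to pepsin by stomach acid. Chia1 encodes acidic mammalian chitinase, which cleaves chitin, and Lipf encodes gastric lipase, which cleaves dietary fat. Bhlha15 encodes Mist1, a basic helix-loop-helix factor that binds E-box DNA and builds up the secretory apparatus of chief cells, pancreatic acinar cells, plasma cells and other secretory cells. In mouse chief cells the intrinsic factor gene, named Gif in these tables and now Cblif, is also made.

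On GRCm38, with GENCODE M21 gene models, Pgc is at chr17:47726842-47734482 on the plus strand with 9 exons and Pga5 at chr19:10668956-10678071 on the minus strand with 9 exons. Chia1 is at chr3:106113229-106132120 on the plus strand with 11 exons, and Lipf at chr19:33961187-33976810 on the plus strand with 10 exons. Bhlha15 is at chr5:144190286-144194441 on the plus strand with 2 exons. All 5 are protein coding. The stretches upstream of the genes whose levels moved together (Pgc, Chia1) and of the factor gene (Bhlha15) are shown, from RefSeq on GRCm38.p6, 5′ to 3′ on the strand of the gene. The RefSeq table used matched 4 of the 5 genes, all but Pga5. Capitals mark TATAAA, the core of a TATA box, and CANNTG, the E-box letters to which basic helix-loop-helix factors can bind.
Pgc, the 250 bases before the start, chr17:47726592-47726841: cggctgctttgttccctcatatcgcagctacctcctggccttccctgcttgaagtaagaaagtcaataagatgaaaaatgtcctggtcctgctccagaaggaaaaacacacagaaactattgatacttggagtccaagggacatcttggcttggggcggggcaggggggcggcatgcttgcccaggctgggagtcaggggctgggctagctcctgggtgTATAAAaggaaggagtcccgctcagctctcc
Chia1, 30 bases from within the 250 before the RefSeq start, chr3:106113325-106113354: aagcactCAGGTGtTATAAAaagcCATTTG
Bhlha15, the 250 bases before the start, chr5:144190036-144190285: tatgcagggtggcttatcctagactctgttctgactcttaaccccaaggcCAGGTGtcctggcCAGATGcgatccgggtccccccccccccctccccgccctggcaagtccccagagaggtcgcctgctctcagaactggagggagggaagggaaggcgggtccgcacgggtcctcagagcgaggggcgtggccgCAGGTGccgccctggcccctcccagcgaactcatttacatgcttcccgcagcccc

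Counted from -1 at the base before the start, TATAAA lies at -31 to -26 in Pgc and at -43 to -38 in Chia1, and it was not found in the Bhlha15 stretch. CANNTG was found at -200, -187 and -55 in Bhlha15 and at -101, -50 and -33 in Chia1, and not in the Pgc stretch. The GENCODE start of Chia1 lies upstream of the RefSeq one, so only a short stretch is printed for it. That stretch and the Chia1 matches lie inside the gene as placed by GENCODE. Over 32851 RefSeq windows of 250 bases, searched on both strands, 12.4% hold TATAAA and 66.2% hold CANNTG, so an E-box sequence is common. Both CATATG, found in 3.46% of windows, and CAGCTG, found in 13.0%, are forms of CANNTG. Neither was found in the 4 windows.

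Library totals ran from 7957165 counts in lesser curvature 2 to 21564972 in greater curvature 2, and levels are given as CPM, counts per 1e+06 of the library after TMM scaling. A gene was called changed at an adjusted p under 0.05 in edgeR's quasi-likelihood test, with Benjamini-Hochberg adjustment over the 16224 genes that passed the filter on low counts. Of the 5 genes, 4 passed it and Lipf did not. Libraries differed in their levels of cell type markers. The summed level of 5 pan-epithelial markers was 158 CPM in lesser curvature 1 and 219 CPM in antrum 1, against 1690 CPM or more in the other tumors and 3798 to 11848 CPM in the normals. Normal 2 alone among the normals held squamous markers at 4850 CPM, and antral markers were 119 CPM in normal 2, 757 CPM in normal 3 and 0.735 CPM in normal 1. In bulk tissue, fewer cells of a type and less RNA per cell cannot be told apart.

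Pgc, the gene of pepsinogen C, was among the most abundant transcripts of normal stomach and lower in most tumors. Its level was 125472, 57013 and 90203 CPM in normals 1 to 3 (mean 90896 ± 34235, SD, n = 3). In TPM, which is scaled by transcript length, it made up 9.51%, 4.4% and 7.02% of the transcripts of the normals and ranked 1, 3 and 1 among all genes. The antrum tumors had 186, 4450 and 2045 CPM (2227 ± 2138, SD, n = 3), and the greater curvature tumors 1617, 40249 and 1605 CPM (14491 ± 22308). The lesser curvature tumors had 2.06, 2548 and 914 CPM (1155 ± 1290), and the corpus tumors 77368, 7082 and 19466 CPM (34639 ± 37519). Hence 11 of 12 tumors lay below all normals, and the exception was corpus 1, where Pgc again ranked 1 among all genes by TPM. The 12 tumors spanned a 37489-fold range against 2.2-fold among the normals. At the low end, lesser curvature 1 held 42 Pgc counts, 0.000257% of its counts (Wilson 95% interval 0.00019% to 0.000347%, counting error only).

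Over the 4 sites together, Pgc fell by 3.92 on the log2 scale (SE 1.17, 95% interval -6.21 to -1.64, edgeR adjusted p = 0.0253). The call was lost when any one of the normals was left out, with an adjusted p of 0.075 without normal 1, 0.0508 without normal 2 and 0.0665 without normal 3. It was kept when each of the 12 tumors was left out.

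Pga5, the gene of pepsinogen A, was far below Pgc in the same samples, although the products are of the same enzyme family. By TPM, which allows genes to be compared per length, Pga5 was at 68.5, 65.4 and 29.9 in normals 1 to 3, so that Pgc was 1388, 674 and 2348 times as abundant. In CPM the normals had 70.1, 77.4 and 33.7 (60.4 ± 23.4, SD, n = 3). The antrum tumors had 0.799, 32.0 and 6.06 CPM, the greater curvature tumors 9.55, 65.2 and 3.46 CPM, the lesser curvature tumors 0, 12.2 and 2.34 CPM, and the corpus tumors 75.0, 36.6 and 25.6 CPM. Of the 12 tumors, 9 lay below all normals, and greater curvature 2, corpus 1 and corpus 2 lay within their range. The fitted difference was -1.88 (SE 1.02, 95% interval -3.88 to 0.12, edgeR adjusted p = 0.164), so it did not pass the test. In lesser curvature 1 no count was seen in 16338129, which allows up to 0.184 counts per 1e+06.

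Chia1, the chitinase gene, showed the largest fitted difference of the 5. The normals had 10315, 3868 and 14443 CPM (9542 ± 5330, SD, n = 3). The antrum tumors had 2.89, 132 and 214 CPM, the greater curvature tumors 134, 3948 and 262 CPM, the lesser curvature tumors 0.0983, 73.5 and 53.6 CPM, and the corpus tumors 3337, 284 and 634 CPM. All tumors but greater curvature 2 lay below all normals, and that tumor was level with normal 2. Chia1 fell by 4.91 on the log2 scale over the 4 sites (SE 1.17, 95% interval -7.21 to -2.61, edgeR adjusted p = 0.0106). The call was kept in all 15 fits that left out 1 library, with an adjusted p of 0.00473 to 0.0418. In lesser curvature 1 only 2 Chia1 counts were seen and in antrum 1 only 47, against 44341 to 188912 in the normals.

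Lipf, the gene of gastric lipase, had 0 counts in 14 libraries and 1 count in antrum 2. The 3 normals together held 0 of 48647049 counts, which allows up to 0.0617 counts per 1e+06. The 12 tumors together held 1 of 191970110. Gastric lipase transcript was thus not detectable at this depth in normal tissue or tumors, and no fold change is given. As a chief cell marker Lipf has no support in these libraries.

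**Figure D1:**
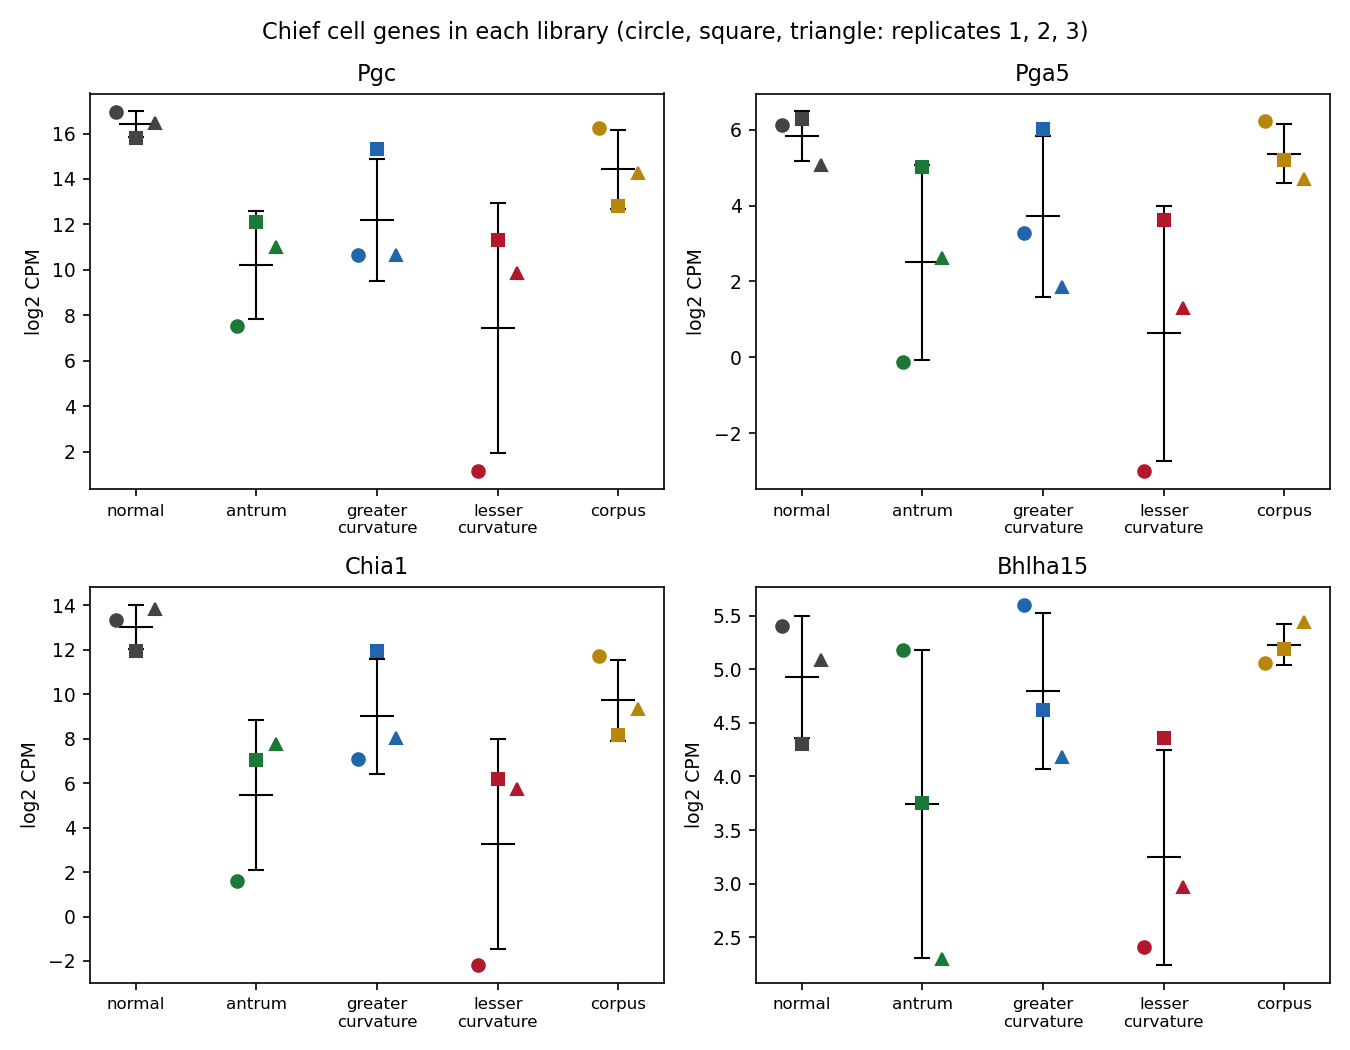
CPM on a log2 scale (log2 CPM, prior count 2) of Pgc, Pga5, Chia1 and Bhlha15 in each of the 15 libraries, by group; symbols are replicates 1 (circle), 2 (square) and 3 (triangle) and bars are group means ± SD of the log2 values. Pgc and Chia1 sit lowest in lesser curvature 1, while Bhlha15 in the corpus tumors lies in and just above the range of the normals.

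Bhlha15, the Mist1 gene, did not pass the test over all tumors, and its levels overlapped between tumors and normals. Its level was 42.2, 19.5 and 33.9 CPM in normals 1 to 3 (31.9 ± 11.5, SD, n = 3). The antrum tumors had 36.0, 13.3 and 4.79 CPM (18.1 ± 16.1), the greater curvature tumors 48.5, 24.5 and 18.0 CPM (30.3 ± 16.1), the lesser curvature tumors 5.21, 20.5 and 7.69 CPM (11.1 ± 8.19), and the corpus tumors 33.1, 36.3 and 43.1 CPM (37.5 ± 5.12). Thus 5 of 12 tumors lay below all normals and 2 above, and the tumors spanned a 10.1-fold range. The fitted difference over the 4 sites was -0.55 (SE 0.51, 95% interval -1.54 to 0.45, edgeR adjusted p = 0.403). Antrum 1, which held 186 CPM of Pgc, had 36.0 CPM of Bhlha15, within the range of the normals.

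Over the 4 sites together 2 of the 4 tested genes were called lower, Chia1 and Pgc, and none higher. The background in that comparison was 15.7% of genes called lower and 16.2% called higher, with a median difference over all tested genes of -0.043 on the log2 scale against -2.90 for the 4. Of the 5 genes, none had all 12 tumors below all normals, which 6.65% of tested genes had.

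Site by site, the fall of Chia1 and Pgc passed edgeR's test in the lesser curvature, and edgeR's tests called no difference between sites. The lesser curvature tumors had Chia1 lower by a log2 difference of -7.82 (SE 2.31, edgeR adjusted p = 0.0253) and Pgc by -6.30 (SE 2.16, edgeR adjusted p = 0.0423), where 15.3% of all genes were called lower. The Pgc call was lost in 9 of 15 fits that left out 1 library (adjusted p 0.0257 to 0.125). Chia1 no longer passed once normal 3 (adjusted p = 0.0552), lesser curvature 1 (0.0566) or lesser curvature 3 (0.0798) was left out. Pga5 differed there by -3.69 (SE 1.61, edgeR adjusted p = 0.0911) and Bhlha15 by -1.53 (SE 0.68, edgeR adjusted p = 0.097). Pga5 passed there with DESeq2 (adjusted p = 0.0258) and with limma on TPM (0.0392 and 0.0441). The share of all genes called with those tools is not given here. Without lesser curvature 2 both genes passed in edgeR, Pga5 with an adjusted p of 0.0459 and Bhlha15 with one of 0.0355. All 3 lesser curvature tumors lay below all normals for Pgc, Chia1 and Pga5, as they did for 27.3% of tested genes.

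In the antrum tumors none of the 4 was called (background 5.08% lower). Chia1 differed by -6.36 (SE 2.17, edgeR adjusted p = 0.0663), Pgc by -5.35 (SE 2.07, edgeR adjusted p = 0.0942), Pga5 by -2.22 and Bhlha15 by -0.82. All 3 tumors lay below all normals for Pgc, Chia1 and Pga5, as for 18.8% of tested genes. DESeq2 called both Chia1 and Pgc there, with an adjusted p of 0.000477 and 0.00302. The background of 5.08% is edgeR's, and the share of all genes that DESeq2 called in the antrum is not given here. Antral glands normally hold few chief cells, and the region of the normals is not stated. The part of region in the antrum differences was not tested. In the greater curvature tumors none was called (background 2.76% lower), and the differences were -2.72 for Chia1, -2.65 for Pgc, -1.21 for Pga5 and -0.07 for Bhlha15, the last of which turned positive in several other fits. That group was split, because greater curvature 2 held 40249 CPM of Pgc and the other tumors of the site 1617 and 1605 CPM. All 3 tumors lay below all normals for Pgc alone among the 4 (14.7% of tested genes).

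The corpus tumors had the smallest fitted differences for Pgc and Pga5, and none of the 4 genes was called (background 1.19% lower). Pgc differed by -1.39 (SE 1.75, 95% interval -4.82 to 2.03, edgeR adjusted p = 0.658), Chia1 by -2.75 (adjusted p = 0.387) and Pga5 by -0.40 (adjusted p = 0.887). Bhlha15 differed by 0.24 (SE 0.66, 95% interval -1.07 to 1.54, edgeR adjusted p = 0.854). These intervals are wide, and they hold both no change and falls of the size seen over all tumors for Pgc. All 3 corpus tumors lay below all normals for Chia1 alone among the 4 (13.4% of tested genes). The 4 site comparisons share the same 3 normals.

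**Figure D2:**
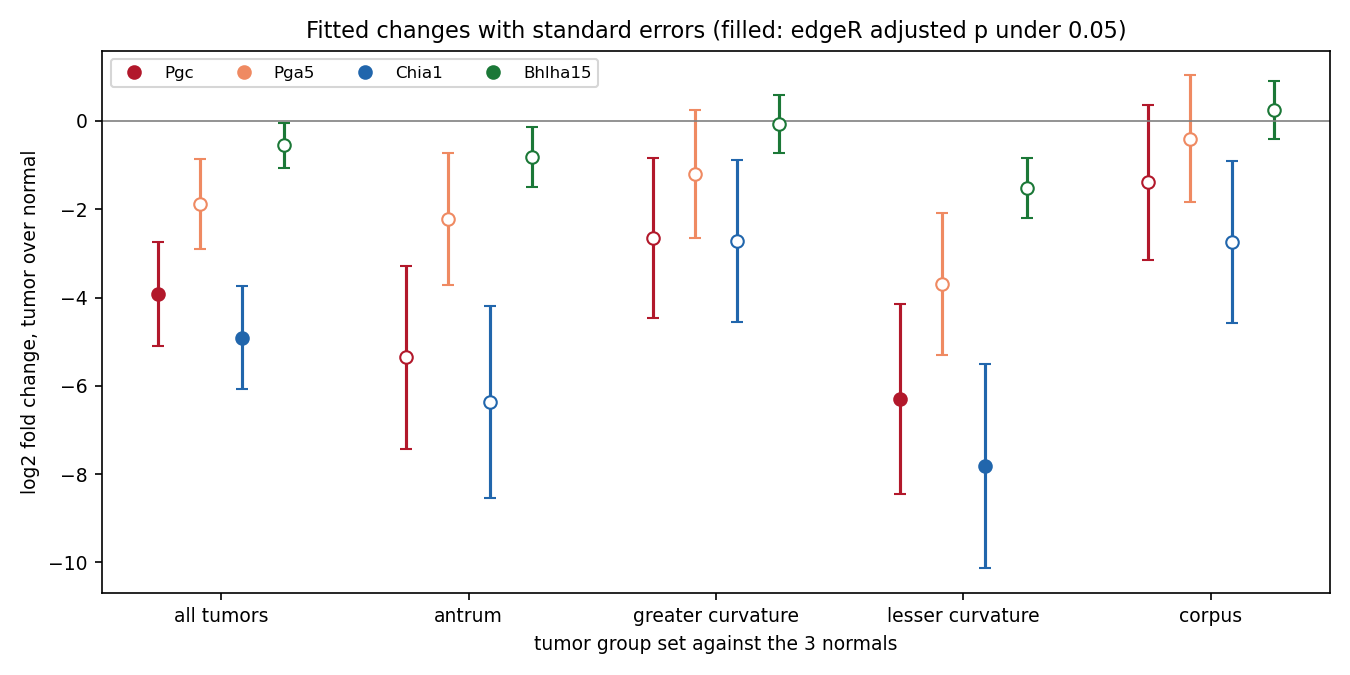
Fitted log2 fold change of each gene in tumors against normal tissue, for all tumors and for each of the 4 sites; points are edgeR estimates, bars are ± 1 standard error and filled points have an adjusted p under 0.05. Filled points appear for Pgc and Chia1 in all tumors and in the lesser curvature, and Bhlha15 stays between -1.53 and 0.24.

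By group means, Pgc and Pga5 both ran from normal through corpus, greater curvature and antrum to lesser curvature. Chia1 had the same order except that the greater curvature (1448 CPM) and the corpus (1418 CPM) changed places, and Bhlha15 was highest in the corpus, ahead of normal tissue. No neighbors in these orders differed beyond their spread (edgeR adjusted p of 0.31 or more), and nearly all neighboring ranges overlapped. For Chia1 the ranges of corpus and antrum did not overlap, with an adjusted p of 0.953. The F test among the 4 sites called none of the 4 genes and 0 of all tested genes, with 947 genes at an unadjusted p under 0.05 and 165 called by DESeq2. Unadjusted p-values were 0.0587 for Chia1, 0.075 for Pgc, 0.0991 for Bhlha15 and 0.231 for Pga5 in the edgeR F test. Among the 6 pairs of sites edgeR called no gene either, with 363 to 2502 genes at an unadjusted p under 0.05. In greater against lesser curvature, Chia1 had an unadjusted p under 0.05 (edgeR adjusted p = 0.78, and 0.116 as the lowest of the genes with DESeq2). In lesser curvature against corpus, Bhlha15, Chia1 and Pgc had an unadjusted p under 0.05 with a lowest adjusted p of 0.322, and DESeq2 called Pgc and Chia1 there (lowest adjusted p = 0.0436). The share of all genes that DESeq2 called in that pair is not given here.

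Ratios within a library were compared between tumors and normals, and none of 7 passed after adjustment. The log2 ratio of Bhlha15 to Pgc was -11.53, -11.50 and -11.37 in the normals (mean -11.47 ± 0.09, SD, n = 3), a tight range although Pgc itself varied 2.2-fold among them. In the tumors it ran from -11.18 in corpus 1 through a median of -7.28 to 1.29 in lesser curvature 1, above all normals in 12 of 12. By TPM, Pgc was 8071, 7883 and 7204 times as abundant as Bhlha15 in the normals, 6331 times in corpus 1, and 1.08 times in lesser curvature 1. The mean difference between tumors and normals was 4.65 on the log2 scale. In the exact two-sided permutation test over all 455 assignments it had p = 0.033, and 0.113 after adjustment over the 7 ratios tested, so it did not pass. The smallest p these assignments allow is 0.0022. Bhlha15 itself differed by -0.55 in the edgeR fit, so its ratio largely repeats the fall of Pgc. Lipf, which was not detectable, gave a similar pattern, with a difference of 5.38 and 11 of 12 tumors above all normals. The share of all genes whose ratio to Pgc lay above all normals in every tumor was not computed.

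The ratio of Pga5 to Pgc was higher by 2.56 in the tumors, with 10 of 12 above all normals (exact permutation p = 0.0264, adjusted 0.113). Its highest value, -4.14 in lesser curvature 1, rests on the prior count, since Pga5 had 0 counts there. With a prior count of 0.5 this ratio passed, as given in the last section. The ratio of Chia1 to Pgc differed by -0.83 (exact permutation p = 0.211, adjusted 0.246), and 7 of 12 tumors lay below all normals. The ratios of Pgc to Gif, to the proton pump subunit gene Atp4b and to the neck cell mucin gene Muc6 differed by -0.78, -1.39 and -1.18 (adjusted exact permutation p = 0.222, 0.222 and 0.512). The ratio of Lipf to Pgc, adjusted p = 0.113 in the same family, has no data for Lipf and only mirrors Pgc.

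**Figure D3:**
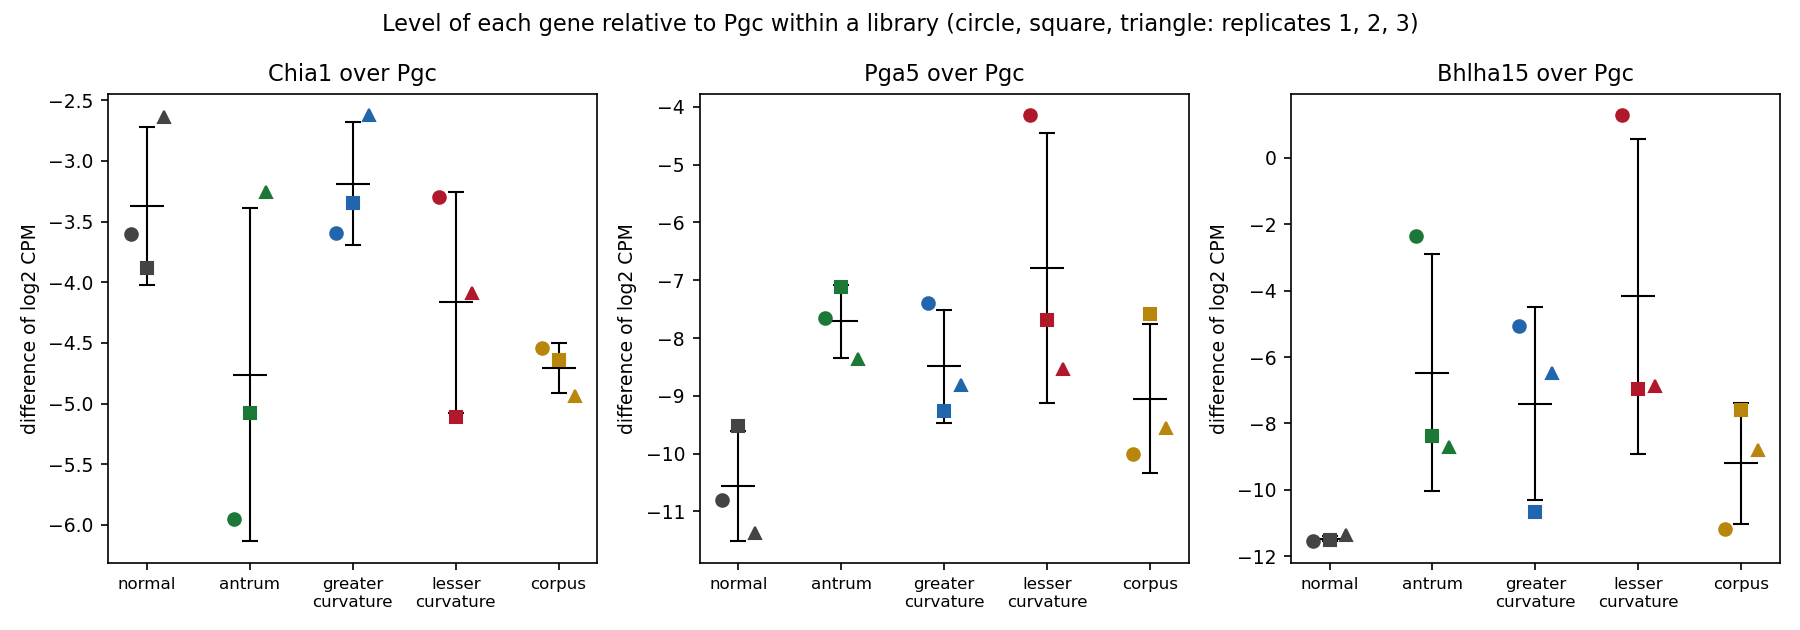
Log2 ratio of Chia1, Pga5 and Bhlha15 to Pgc within each of the 15 libraries (log2 CPM, prior count 2), by group. The 3 normals lie within -11.53 to -11.37 for Bhlha15, and all 12 tumors lie higher, up to 1.29 in lesser curvature 1. This difference largely repeats the fall of Pgc.

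Across libraries, the enzyme genes varied together and Bhlha15 was less closely correlated with them. Correlations are of log2 CPM, and points share library and depth. For Pgc the likeness was greatest with Pla2g1b, a secreted phospholipase gene (Pearson r 0.997 over 15 libraries and 0.997 over the 12 tumors), then Gif (0.986) and Aldh1l1, a folate enzyme gene (0.984). Pla2g1b was at 8508, 5822 and 9553 CPM in the normals and at 0.147 CPM in lesser curvature 1. Pgc and Pga5 correlated at r 0.957 over 15 libraries, 0.962 over the tumors and 0.899 over the 10 tumors without antrum 1 and lesser curvature 1. Pgc and Chia1 correlated at r 0.975, 0.968 and 0.917 over the same sets. Pga5 and Chia1 correlated at r 0.912, 0.922 and 0.739, so that pair was less close without antrum 1 and lesser curvature 1. For Pga5 the genes most alike over 15 libraries were Ell2 (r 0.984), which encodes an elongation factor used in secretory cells, Clic6 (0.981) and Fam84b (0.981). For Chia1 they were Pla2g1b (0.978), Cdkn2b (0.963) and Ephx2 (0.961). Over the tumors alone they were Ell2 (0.987), Gif (0.986) and Clic6 (0.982) for Pga5, and Pla2g1b (0.972), Myh7 (0.966) and Plp2 (0.964) for Chia1.

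For Bhlha15 the genes most alike were Mccc2, a leucine breakdown enzyme gene (r 0.947 over 15 libraries and 0.965 over the tumors), Sstr2, a somatostatin receptor gene (0.926 over 15), and Tent5c (0.921 over 15), with Rhot2 (0.954) and Tnni3 (0.946) over the tumors. Bhlha15 and Pgc correlated at r 0.571 over 15 libraries (Spearman 0.411) and 0.53 over the tumors. Acinar genes were also compared, chosen after values were seen. For the transcription factor genes Rbpjl and Ptf1a, r with Bhlha15 was 0.848 and 0.792 over 15 libraries and 0.932 and 0.937 over the tumors. It was 0.91 and 0.916 over the tumors without antrum 1 and lesser curvature 1. For the chymotrypsinogen gene Ctrb1 it was 0.624 over 15 libraries and 0.778 over the tumors. With the epithelial marker Epcam the value over the tumors was 0.069 for Bhlha15, against 0.777 for Pgc, 0.84 for Pga5 and 0.845 for Chia1. The enzyme genes thus also varied with a general epithelial marker.

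**Figure D4:**
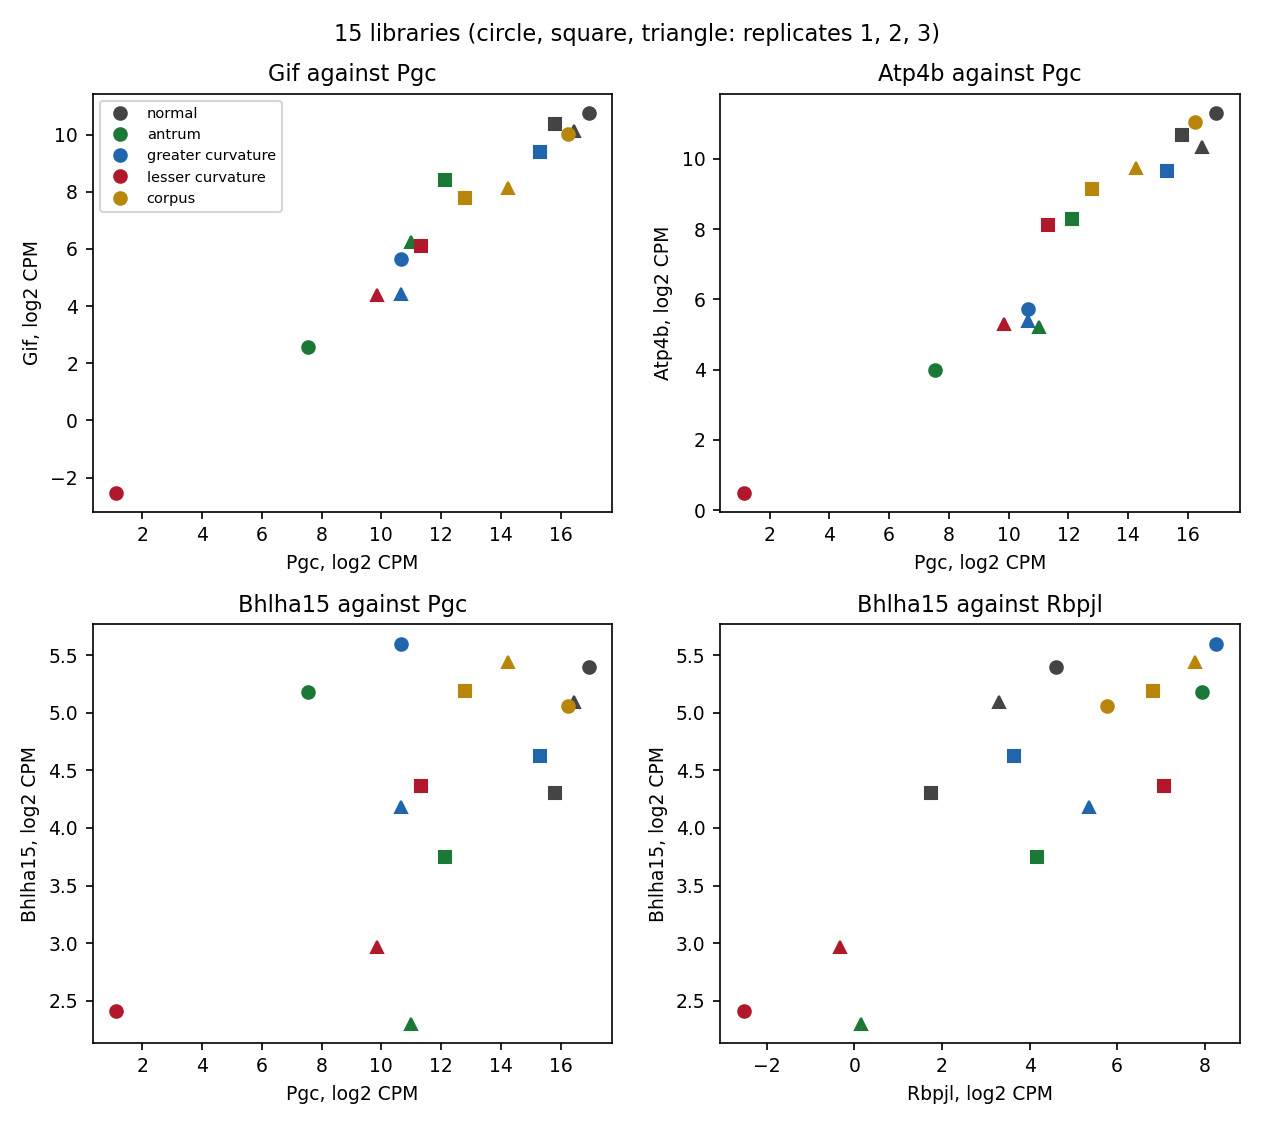
Scatter plots of log2 CPM (prior count 2) in the 15 libraries for Gif against Pgc, Atp4b against Pgc, Bhlha15 against Pgc and Bhlha15 against Rbpjl; each point is 1 library, marked by group. Gif and Atp4b run along a line with Pgc (r 0.986 and 0.965), and Bhlha15 has a wider scatter (r 0.571).

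Mist1 is shared with pancreatic acinar cells and plasma cells, so markers of both were summed in each library. The 14 acinar genes of the list (13 tested) had 2 called lower, Clps and Cela1, and none higher, with a median difference of 2.14. That count lies near the 15.7% of all genes called lower. Summed, the 14 were at 19210, 12751 and 21971 CPM in normals 1 to 3. In the tumors that sum ran from 3 CPM in lesser curvature 1 through a median of 1473 to 17092 CPM in corpus 1. Clps, the colipase gene, was at 12600 to 21800 CPM in the normals and tracked Pgc (r 0.973). Without Clps and Cela1, set aside after their values were seen, the remaining 12 acinar genes summed to 250, 15.5 and 34.1 CPM in normals 1 to 3. In the tumors they ran from 1.57 CPM in lesser curvature 1 through a median of 339 to 5092 CPM in greater curvature 1, and were 884 to 1360 CPM in the corpus. Rbpjl was at 244 CPM in antrum 1, 305 in greater curvature 1, 54.5 to 220 in the corpus and 3.23 to 24.3 in the normals (log2 difference 2.82, edgeR adjusted p = 0.263). Ptf1a was at 0.96 to 5.51 CPM in the normals and 69.2 CPM in antrum 1 (log2 difference 2.81, edgeR adjusted p = 0.191). Rbpjl and Ptf1a moved with Bhlha15 across the tumors, and the part of acinar cells in the level of Bhlha15 was not tested. The 8 plasma cell genes (7 tested) had 1 called lower, Derl3 (-1.80, edgeR adjusted p = 0.0117), also near the 15.7% of all genes. They summed to 218 to 389 CPM in the normals and 80.9 to 476 CPM in the tumors. Derl3 no longer passed once normal 1 (adjusted p = 0.0981) or normal 3 (0.0504) was left out.

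Other chief cell genes were mixed. Of 5 listed, Gif and Gper1 were called lower, beside 15.7% of all genes, with none higher and a median difference of -0.90. Gif was at 1748, 1331 and 1120 CPM in the normals and below them in 12 of 12 tumors, with 0.0491 CPM in lesser curvature 1, 1044 CPM in corpus 1 and 222 and 282 CPM in the other corpus tumors (log2 difference -3.21, edgeR adjusted p = 0.0464). Gper1, an estrogen receptor gene of chief cells, differed by -1.15 (edgeR adjusted p = 0.0453). Both calls sat near the threshold and were lost in 9 and 11 of the 15 fits that left out 1 library, with adjusted p up to 0.113 and 0.156. The others were Tnfrsf19 (-0.90), Runx1 (-0.54) and the stem cell receptor gene Lgr5 (0.31), which did not pass.

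The median of 6 genes reported as Mist1 targets was -1.73 over all tumors, against -0.043 over all tested genes. Of the 6, none was called higher and 4 were called lower, beside 15.7% of all genes called lower. They were Creb3l4, a membrane-bound transcription factor gene (-2.99, edgeR adjusted p = 0.0186), Tmed6, a cargo receptor gene (-2.04, edgeR adjusted p = 0.023), Copz2, a vesicle coat gene (-1.94, edgeR adjusted p = 0.0118), and Rab3d, a granule GTPase gene (-1.52, edgeR adjusted p = 0.0379). Rab3d was at 258, 323 and 272 CPM in the normals and 19.2 to 231 CPM in the tumors, below all normals in each. The calls of Creb3l4 and Copz2 were lost without normal 1 (adjusted p = 0.19 and 0.147), where those genes were at 165 and 53.2 CPM against 28.4 and 36.1, and 16.5 and 13.7, in the other normals. The Tmed6 call was lost without any one of the normals (adjusted p = 0.0647, 0.062 and 0.0751), and the Rab3d call in 9 of 15 such fits (up to 0.123). Rab26 differed by 1.69 (edgeR adjusted p = 0.274) and Atp2c2, a calcium pump gene, by 0.13, which turned negative in several other fits. The same 4 were called in the lesser curvature (background 15.3% lower), Copz2 in the antrum (background 5.08% lower), and none in the greater curvature or the corpus.

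Among 7 genes of the E protein partners and Id inhibitors of basic helix-loop-helix factors, the partner genes Tcf3 and Tcf4 were called higher and Id2 lower, beside 16.2% of all genes higher and 15.7% lower. Tcf3 was at 44.2, 25.8 and 37.1 CPM in the normals and 51.2 to 138 CPM in the tumors, above all normals in each (log2 difference 1.33, edgeR adjusted p = 0.00874). Id2 was at 139 to 167 CPM in the normals and 37.2 to 124 CPM in the tumors (-1.18, edgeR adjusted p = 0.0063). Both calls were kept with any 1 library left out. The Tcf4 call (0.73, edgeR adjusted p = 0.0419) was lost in 9 of 15 such fits, with adjusted p up to 0.152.

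Genes of the folding machinery of the endoplasmic reticulum had small fitted differences. Of 19 genes, 4 were called lower and none higher, near the 15.7% of all genes called lower, with a median of -0.31. Herpud1, a gene of the quality control of misfolded proteins, was at 511, 407 and 322 CPM in the normals and 66.0 to 224 CPM in the tumors (-1.74, edgeR adjusted p = 0.00198), and that call was kept with any 1 library left out. Dnajb9 (-1.33, adjusted p = 0.00973) lost its call without normal 2 (0.0718). Xbp1, the factor of the unfolded protein response that acts upstream of Mist1 in secretory cells (-1.08, edgeR adjusted p = 0.0446), and Edem1 (-0.78, edgeR adjusted p = 0.0347) lost theirs in 10 and 8 of 15 such fits (up to 0.147 and 0.128). Of 6 receptors for chief cell secretagogues, the muscarinic receptor genes Chrm1 (-2.65, edgeR adjusted p = 0.00766) and Chrm3 (-1.61, edgeR adjusted p = 0.0109) were called lower and none higher, with a median of -1.07. Both were lost without normal 1 (adjusted p = 0.0864 and 0.0942). Cckar, the cholecystokinin receptor gene, differed by 1.28 (edgeR adjusted p = 0.467).

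**Figure D5:**
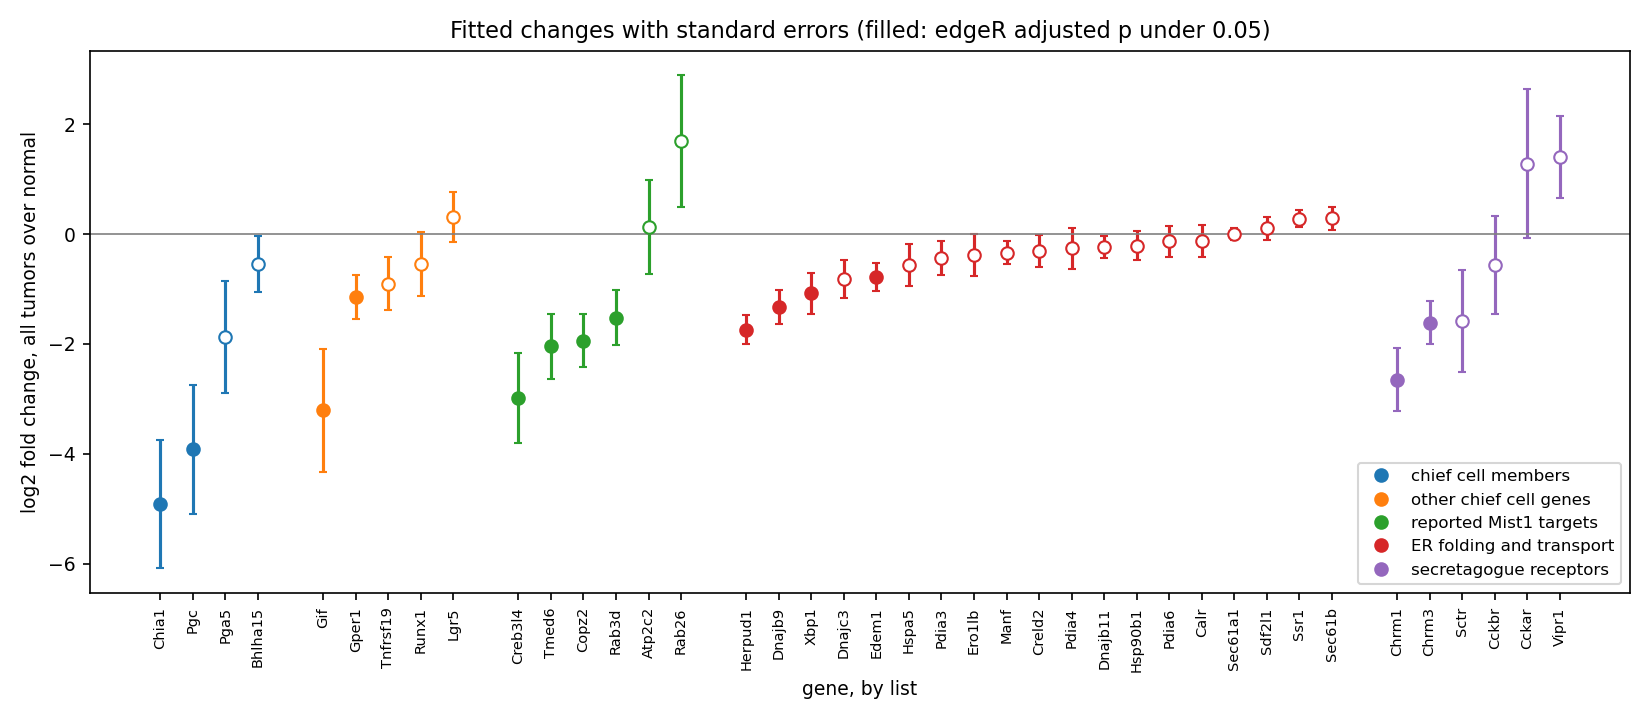
Fitted log2 fold change of all tumors against normal tissue for the chief cell genes described, other chief cell genes, reported Mist1 targets, endoplasmic reticulum genes and secretagogue receptor genes; points are edgeR estimates, bars are ± 1 standard error and filled points have an adjusted p under 0.05. Chia1 and Pgc lie farthest to the negative side at -4.91 and -3.92, and the endoplasmic reticulum genes center near -0.31.

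Genes of related enzymes were mixed. Over all tumors 15.7% of all genes were called lower and 16.2% higher. Of 7 aspartic protease genes other than the pepsinogens (6 tested), none was called lower and 2 were called higher, with a median of -0.75. Cym, the gene of chymosin, a milk-clotting relative of pepsin, was at 5.14, 1.74 and 2.98 CPM in the normals and above them in 10 of 12 tumors, up to 121 CPM in corpus 3 (2.80, SE 0.97, edgeR adjusted p = 0.0443). That call was lost in 10 of 15 fits with 1 library left out (adjusted p up to 0.15). Bace1 was the other (0.72, edgeR adjusted p = 0.00887). Of 9 acid lipase genes, 5 were tested and 4 called lower, with a median of -3.42. Of these Lipm, Lipn and Lipk were at 89.4, 30.4 and 18.5 CPM in normal 2, the library with squamous markers, and lost their calls without it (adjusted p = 0.257, 0.712 and 0.872). Lipa (-0.92, edgeR adjusted p = 0.0404) lost its call in 8 of 15 such fits (up to 0.249). Of 9 chitinase family genes, 8 were in the table, 6 were tested and none was called, with a median of -0.57, and Chit1 came nearest (-2.08, edgeR adjusted p = 0.0506). Chil4, which lies beyond Chil3 from Chia1 on chromosome 3, was at 543 CPM in normal 2 and under 0.1 CPM in the other normals. Estimated counts can shift reads between such related genes, and normal 2 also held the squamous markers. The part of either in the level of Chil4 was not tested.

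Parietal cell markers were lower along with the enzymes, and markers of other gland cells were mixed. The counts of calls that follow stand beside 15.7% of all genes called lower over all tumors. Of 9 parietal cell genes 6 were called lower and none higher (median -2.45), and their summed level was 8778, 5463 and 4738 CPM in the normals and 90.2 CPM (lesser curvature 1) to 7133 CPM (corpus 1) in the tumors. Hrh2, Kcne2, Esrrg and Slc26a7 had the smallest p among them (adjusted p = 0.00816, 0.00913, 0.00789 and 0.0155 in edgeR). Those of Esrrg and Slc26a7 were lost without normal 1 (0.0853 and 0.0892). Pgc correlated with Atp4b at r 0.965 over 15 libraries and 0.92 over the 10 tumors without antrum 1 and lesser curvature 1. Of 8 neck cell and metaplasia genes 3 were called lower (Muc6, Gkn3 and Tff2, median -1.79), of which Muc6 and Tff2 were lost without normal 1 (adjusted p = 0.077 and 0.318), and of 4 pit cell genes none (median -1.50). None of the 5 pan-epithelial genes was called (median -0.89). All 6 smooth muscle genes (median -3.23), 5 of 7 squamous genes (median -4.07) and all 3 antral gland genes (median -7.29) were called lower. Without normal 2 each of the 5 squamous calls was lost or changed sign, and without normal 3 the 3 antral calls were lost (adjusted p 0.0578 to 0.0965). The part of these other cells in the levels of Pgc, Pga5, Chia1 and Bhlha15 was not tested. Without antrum 1 and lesser curvature 1, the tumors lowest in pan-epithelial markers, Pgc differed by -3.64 (edgeR adjusted p = 0.0181), Chia1 by -4.62 (0.00895), Pga5 by -1.59 (0.132) and Bhlha15 by -0.71 (0.187). In that fit the calls of Pgc and Chia1 over the 4 sites together were kept, whereas in the lesser curvature Pgc no longer passed without that pair (adjusted p = 0.0509). The tumors that remained still held as little as 1690 CPM of pan-epithelial markers, against 3798 to 11848 CPM in the normals. The part of epithelial content in these differences was not tested.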

How the data were processed

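Bulk RNA (RNeasy kit, paired-end 100 bp reads on an Illumina NovaSeq, per the labels' protocols) was measured in 15 libraries. The submitters' processing notes name bcl2fastq 2.19, kallisto 0.44.0, sleuth, DESeq2 and GRCm38.p6, without role or order. The authors deposited estimated counts per gene as whole numbers, with 7957165 to 21564972 per library, so 1 count is 0.0478 to 0.112 CPM. A further table of the authors carries FPKM in its name. Since every one of its columns adds up to 1e+06, its values were taken as TPM, made by the authors, where the plan had allowed for either unit. It was used for comparisons between genes. All 15 sample columns were matched to samples by their labels. No library pair shared more than 0.849% of identical counts over genes, with genes of low summed count in the pair left out.

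The test on counts was the quasi-likelihood one of edgeR 4.0.16 (R 4.3.3): filterByExpr with a minimum count of 10, TMM, and 1 robust quasi-likelihood model of all 15 libraries by group. Calls are at a Benjamini-Hochberg adjusted p under 0.05 over 16224 genes, and log2 CPM uses a prior count of 2. Adjusted p-values without a named tool are from edgeR. So are the shares of all genes called that stand as background, and none is given for the calls of DESeq2 or limma. Ratios were tested with exact two-sided permutations. The fit was tested on simulated data. Alternatives were DESeq2 1.42.0, its size factors, no filter, a replicate block, only the groups compared, limma 3.58.1 on log2(TPM + 1) or log2(TPM + 0.1) for genes with a TPM of 1 in 3 libraries, a prior count of 0.5 for the ratios, and each library left out. The planned settings included removal of both greater curvature 2 and corpus 1. Removal of both antrum 1 and lesser curvature 1 was chosen after seeing the data.

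Named genes are the 5 members, up to 4 tested genes with the smallest p from each of 17 other lists (132 genes, 1 absent), and the 3 genes most correlated with each member over 15 libraries and over 12 tumors. The members themselves, predicted genes, pseudogenes and genes without a symbol were left out of that ranking by correlation. Other list genes with values, such as Rbpjl, Epcam or Rab26, were chosen after their values were seen. The members and the lists were chosen with earlier results of these data known. Intervals and floors of 3 counts cover counting error only.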

Additional observations from a re-analysis of the deposited data

How the results depend on the processing

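Of 568 values for single genes under other settings, 530 kept their direction and their side of the threshold, 18 lost a call, 13 gained one and 7 changed sign. The number of the 4 tested genes called lower over all tumors was 2 in the settings with all libraries and 1 to 2 with 1 library left out, at 1 without each normal. In the antrum it was 0, but 2 with DESeq2, 1 with limma at either pseudocount, 1 without greater curvature 2 and corpus 1 together, and 0 to 1 with 1 library left out. In the lesser curvature it was 2, but 1 without a filter on low counts, 1 with only the groups compared, 1 without antrum 1 and lesser curvature 1 together, and 0 to 3 with 1 library left out. It was 0 in the greater curvature and the corpus throughout the removals. Among the pairs of sites, DESeq2 called Pgc and Chia1 of the 4 tested genes in lesser curvature against corpus only, and edgeR called none. Pga5 in the lesser curvature was called with DESeq2 (adjusted p = 0.0258) and limma (0.0392 and 0.0441). Of the 7 ratios 0 passed, against 1 at a prior count of 0.5 (Pga5 to Pgc, 2.37, adjusted exact permutation p = 0.0462) and 0 to 2 with 1 library left out. Bhlha15 in the greater curvature changed sign, to 0.36 and 0.39 with limma on TPM and 0.06 without greater curvature 2 and corpus 1, with a range of -0.58 to 0.20 over single removals. In the corpus the range was -0.02 to 0.49. The cause of these changes was not tested. Limma on TPM moved the median of all genes by 0.43 and 0.52 over all tumors, so its differences are read against that. Of 49 list genes called lower or higher over all tumors, the described genes included, 16 kept their call in each of the 15 single removals. For all tumors against normal, the groups compared are all libraries, so that setting was not run separately.

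Replicate numbers do not mark a shared animal or day in the labels, so the main fit did not pair samples by them. Of 30 same-numbered pairs of libraries, 17 had correlated deviations above 0.1 (range -0.566 to 0.693). These lay mostly among the normal, antrum and both curvature groups, such as 0.693 for antrum 2 and greater curvature 2. Most same-numbered pairs with a corpus library lay below 0.1, such as -0.566 for antrum 1 and corpus 1. Whether the numbers mark shared animals cannot be told from these values. As a hint from the data, 10 of 15 libraries correlated best with their own number. With a replicate block, Pgc over all tumors was -4.73 (edgeR adjusted p = 0.0231), Chia1 -5.45 (0.0165), Pga5 -2.48 (0.0501) and Bhlha15 -0.60 (0.35), and Pga5 in the lesser curvature was -4.51 (0.0325). The counts of called genes were the same in each comparison with normal tissue except the lesser curvature, where 3 of the 4 were called in place of 2.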
